A study of Danio rerio with 11 samples.

Results

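The genes described here encode potassium channels, hyperpolarization-activated cyclic nucleotide-gated (HCN) channels and transient receptor potential (TRP) channels, with the subunits that assemble with them. The set was chosen with earlier results of these data known. Its members were taken by symbol, in capital or small letters. A symbol had to start with kcn, or with hcn, trpa, trpc, trpm, trpv, pkd1l or pkd2. This gave 168 of the 39714 gene IDs listed. By class there were 40 pore-forming voltage-gated potassium (Kv) genes, 12 silent Kv subunits, 16 auxiliary subunits, 29 inward rectifiers (Kir), 21 two-pore-domain (K2P) genes, 11 calcium- or sodium-activated potassium (KCa) genes, 6 HCN genes and 33 TRP genes, polycystins included. A symbol in capitals is the form that the reference of gene names gives to a zebrafish ID, and 27 symbols stood for 59 of these IDs, so for those symbols the Ensembl ID tells the copies apart.

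The cells were intraspinal serotonergic neurons (ISNs), the serotonin-producing neurons that lie inside the spinal cord, sorted by fluorescence from the transgenic zebrafish line Tg(tph2:GFP). In this line GFP is driven by tph2, the gene of the enzyme that starts serotonin synthesis in neurons, so the sort takes whatever cell carries that reporter. All fish had a complete transection of the cord. According to the methods the cut lay at the seventh segment and fish were used as juveniles or adults of 6 to 8 weeks. The injury segment gave 6 libraries and the distal segments of the same fish 5, all at 6 to 8 weeks after injury, and both groups therefore come from injured animals. Uninjured ISNs were not analysed here, and the number of fish behind a library is not given in the sources used here.

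Potassium channels let potassium leave the cell and so hold the resting potential, end the action potential and space the spikes. Kv channels open on depolarization, KCa channels on the calcium or sodium that spikes bring in, Kir channels near rest, and K2P channels leak at most voltages. HCN channels open on hyperpolarization and pass an inward current that can pace firing, and TRP channels are mostly calcium-permeable cation channels opened by receptors, lipids, temperature or mechanical force. In mammalian serotonergic neurons, receptors coupled to Gi/o proteins open Kir3 (GIRK) channels, and small-conductance KCa (SK) channels produce the pause after each spike.

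Values were FPKM, that is, fragments per kilobase of gene scaled to the mapped total of the library. Library totals recovered from the values lay between 14215980 and 19709661 fragments and differed little beside the number of genes at 1 FPKM or more, which ran from 4530 to 16019. It was lowest in injury replicates 3 and 2 (4530 and 5443) and then in distal replicate 2 (8448). All 7 serotonergic marker IDs that could be matched were above 0 in all 11 libraries, with tph2 itself at 1462 to 6042 FPKM. Markers of other cells were also present. Summed markers of myelinating oligodendrocytes (8 IDs) reached 0 to 63.6 FPKM in injury replicates 1 to 5, 754.6 in injury replicate 6 and 160.1 to 708.5 in the distal libraries. Markers of microglia and macrophages (7 IDs) were highest in injury replicate 6 and distal replicate 3, at 392.6 and 294.5 FPKM. Most of that came from cd74a, at 236.0 and 163.2 FPKM in these libraries, and SPI1 (4.53 and 8.09 FPKM) and ptprc (4.98 and 1.13 FPKM) were present there too, while csf1ra and CORO1A were at 0 in both. Those of endothelium (4 IDs) did not pass 0.0919 FPKM in any library, with kdrl and FLI1 at 0.

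The KCa class had the largest share of genes expressed in the ISNs. A gene was counted as expressed when its median over the 11 libraries was at least 1 FPKM, and 30 of the 168 channel genes, or 17.9%, met this, against 26.0% of all IDs. In the KCa class it was 6 of 11 (54.5%). The other classes had 8 of 40 Kv genes, 1 of 12 silent Kv, 4 of 16 auxiliary, 2 of 29 Kir, 3 of 21 K2P, 1 of 6 HCN and 5 of 33 TRP genes. Of the rest, 36 channel genes were at 0 in every library (21.4%, against 25.7% of all IDs). Only 4 were above 0 in all 11 libraries (2.38%, against 5.76% of all IDs), among them KCNMA1 (ENSDARG00000079840), KCNC1 (ENSDARG00000051852) and kcnn3. Each library held at least 1 Kv, 1 Kir, 1 KCa and 1 TRP gene at 1 FPKM, while an HCN gene reached that level in 9 libraries.

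**Figure D1:**
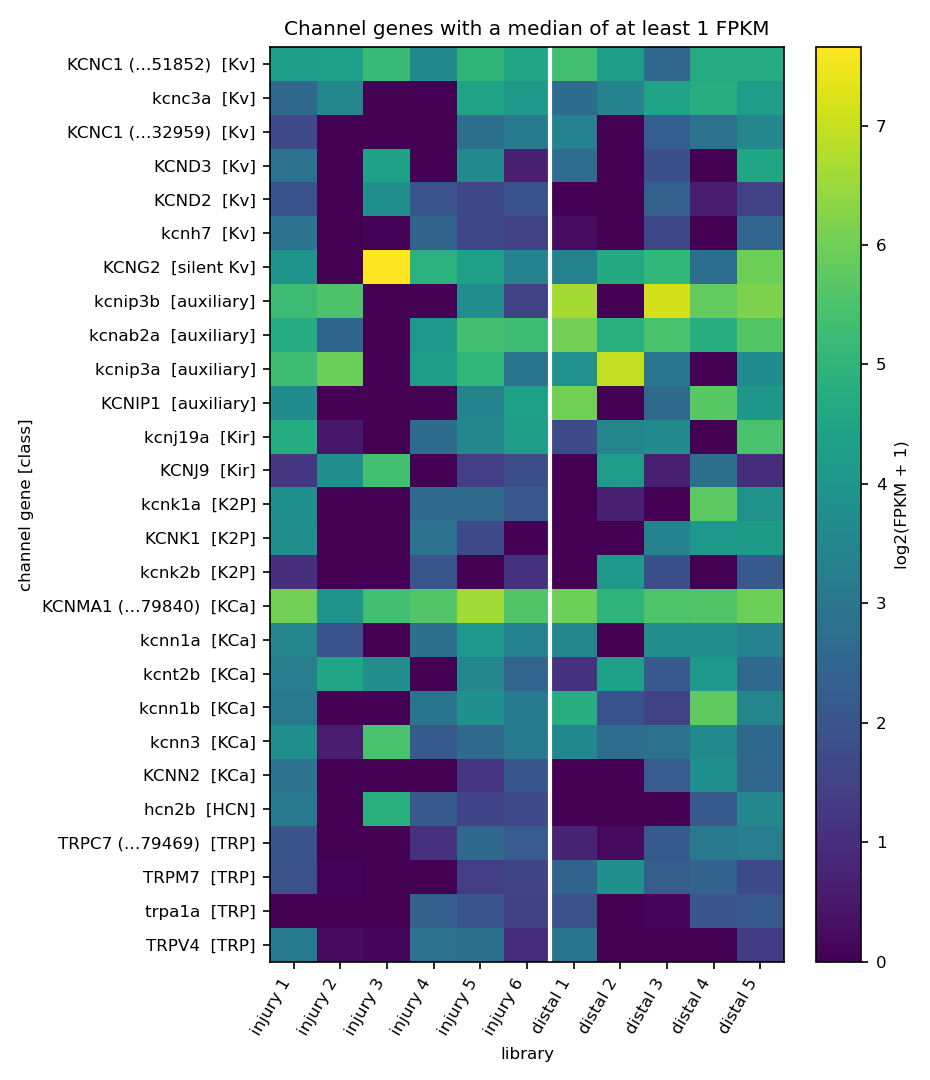
Heat map of log2(FPKM + 1) for 27 of the 30 channel genes with a median of at least 1 FPKM (rows, with the class in brackets and the last digits of the Ensembl ID where a symbol has several) in the 11 libraries (columns, injury left of the white line, distal right of it). KCNMA1, KCNC1 and kcnn3 have a value above 0 in every column, and injury replicates 2 and 3 hold the most empty cells.

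The number of channel genes found in a library went with the number of genes found in it at all. Channel genes at 1 FPKM or more numbered 56, 13, 14, 26, 62 and 55 across injury replicates 1 to 6, against 31, 23, 41, 32 and 57 across distal replicates 1 to 5. The distal range lay inside the injury range. Across the 11 libraries this number and the number of all genes at 1 FPKM gave Pearson's r 0.982 and Spearman's rho 0.945, which is given as a description, since both counts come from the same libraries. A channel gene listed at 0 in injury replicate 2 or 3 is therefore not read as absent from those cells. Most channel genes were seen in few libraries, with 69 above 0 in 1 to 3 libraries, 40 in 4 to 7 and 19 in 8 to 10.

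**Figure D2:**
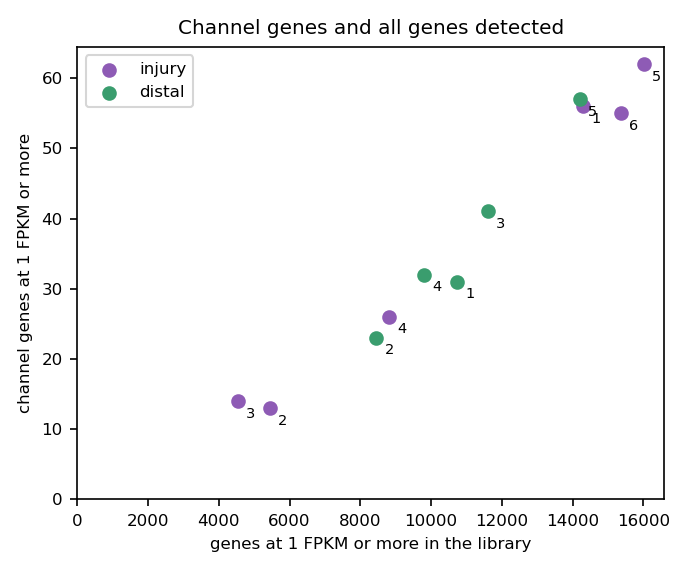
Number of channel genes at 1 FPKM or more (y axis) against the number of all genes at 1 FPKM or more (x axis), 1 point for each library, labelled with its replicate number. The points run from 13 and 14 channel genes in injury replicates 2 and 3 to 62 in injury replicate 5, and the distal libraries (23 to 57) lie among the injury libraries.

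The injury segment was compared with the distal segments to ask whether ISNs at the injury carry other channels than ISNs away from it. No channel gene passed the test. A filter on low values, a mean of at least 0.1 FPKM, left 102 of the 168 channel genes and 24178 genes in all, and limma was fitted to log2(FPKM + 1) of all of them. At an unadjusted two-sided p under 0.05, 0 of the 102 were called, against 2.68% of all genes tested (159 higher and 490 lower at the injury). With Benjamini-Hochberg adjustment 0 channel genes were called, and percent called over all genes was 0.0, the lowest adjusted p of a channel gene being 0.838 by limma. A limma fit on recovered fragments with voom called 5 of the 102 unadjusted, against 4.82% of all genes, and 0 adjusted. These were TRPM7, lower at the injury, and KCNK10 (ENSDARG00000062849), kcnk4a, kcnk17 and KCNV2 (ENSDARG00000062906), higher there. The last 3 are named only for this count, after their values were seen. In the distal libraries kcnk4a did not pass 0.0118 FPKM and the other genes called higher were at 0. All 4 called higher thus passed the filter through the injury group only and could not have been called lower. kcnk17 and KCNV2 were above 0 in 3 injury libraries each.

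By mean log2 level, 55 channel genes were on the injury side and 47 on the distal side, and their median difference was 0.09 on the log2 scale, against -0.04 over all genes tested. Among the 30 expressed genes 11 were on the injury side and 19 on the distal side, with a median difference of -0.24. Over the 15703 genes whose mean reached 1 FPKM the median difference was -0.21. That cut is on the mean and not on the median, so it is only a near match to the rule for the 30. Ranges of the injury and distal libraries overlapped for every one of the 102, where 0.252% of all genes tested had ranges that did not overlap. In an exact two-sided permutation test over the 462 ways to divide the libraries, 1 of the 102 had an unadjusted p under 0.05, which is 0.98% against 2.44% of all genes. Nothing says that the libraries of a group came from separate pools of fish, so these tests measure the spread between libraries only. In bulk libraries, fewer cells that carry a transcript and less of it in each cell cannot be told apart.

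**Figure D3:**
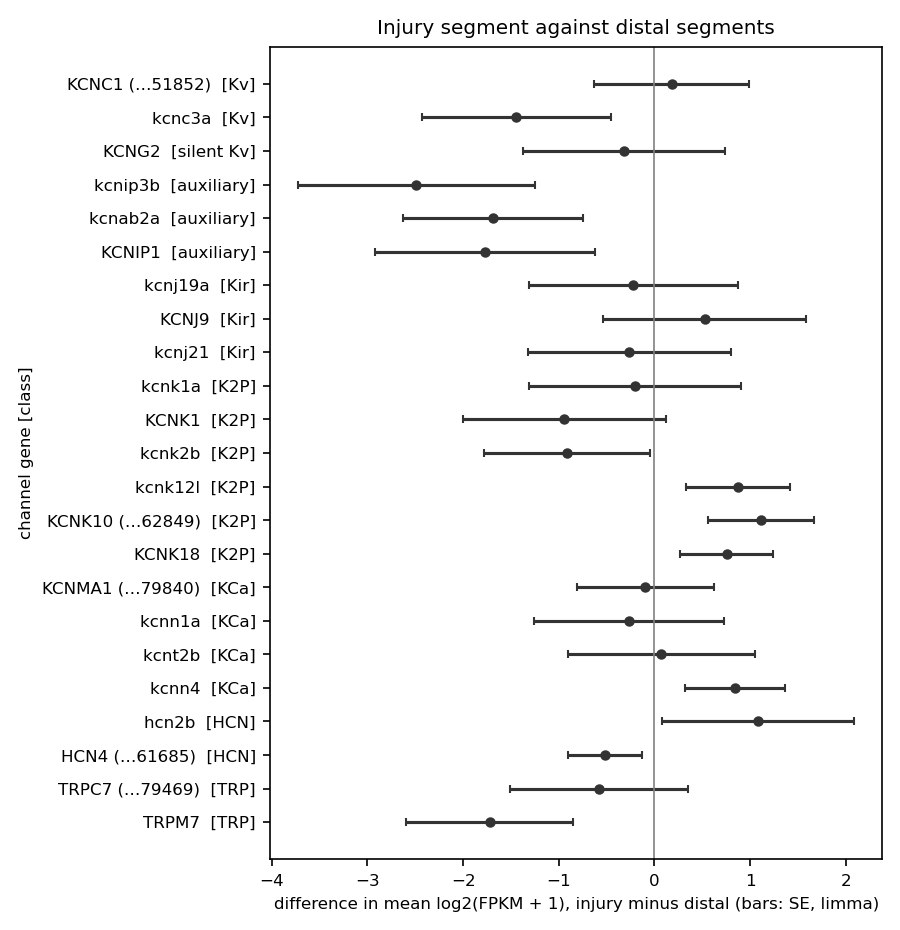
Difference in mean log2(FPKM + 1), injury minus distal (x axis), for 23 channel genes named by rule (y axis, class in brackets), with bars of 1 SE from limma. The points lie between -2.49 for kcnip3b and 1.11 for KCNK10 (ENSDARG00000062849), and no difference passed the test.

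The gene of the large-conductance (BK) channel, KCNMA1 (ENSDARG00000079840), had the highest median of all channel genes, 46.6 FPKM, and the steadiest level of the expressed ones, with a coefficient of variation of 40.9% over the 11 libraries. BK channels open on calcium and voltage together and shorten the spike. The level was 63.9, 14.5, 39.9, 47.6, 94.8 and 46.5 FPKM across injury replicates 1 to 6, against 61.8, 30.8, 45.8, 46.6 and 61.2 FPKM across distal replicates 1 to 5. The groups overlapped almost wholly, the lowest and the highest value both being injury libraries. KCNMA1 was the leading channel gene in 4 injury libraries and never ranked below the eighth, and the difference in mean log2 level was -0.09 ± 0.72 (SE, limma adjusted p = 0.984). The other copy, KCNMA1 (ENSDARG00000110727), did not pass 5.62 FPKM in any library.

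All 4 SK genes, which code for the calcium-activated channels of the afterhyperpolarization, were expressed. Their summed level ran from 3.33 to 43.2 FPKM at the injury (median 32.0), against 8.53 to 92.6 FPKM distally (median 29.2), so the groups overlapped. kcnn1a stood at 10.2, 2.82, 0, 6.04, 16.1 and 9.39 FPKM across injury replicates 1 to 6, against 10.6, 0, 12.5, 12.6 and 9.43 FPKM across distal replicates 1 to 5. It was thus near 10 FPKM in most libraries of both groups and low or at 0 in the same 3 libraries that had the fewest genes. kcnn3, seen in all 11 libraries, had 0.511 to 43.2 FPKM at the injury, against 4.86 to 11.8 FPKM distally. kcnn1b reached 54.8 FPKM in distal replicate 4 against at most 13.3 FPKM at the injury, and the limma difference was -1.33 ± 1.03 on the log2 scale (SE, adjusted p = 0.838). KCNN2 was highest in distal replicate 4, at 13.4 FPKM, and at 0 in 5 libraries.

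Of the remaining KCa genes, kcnt2b codes for a sodium-activated channel of the Slack and Slick family. Its level was 8.21, 22.1, 12.8, 0, 10.6 and 4.65 FPKM across injury replicates 1 to 6, against 1.11, 19.1, 3.36, 16.5 and 5.08 FPKM across distal replicates 1 to 5. Each group held both low and high libraries, and the difference was 0.07 ± 0.98 (SE, limma adjusted p = 0.991). kcnn4, the intermediate-conductance channel known in mammals from blood and epithelial cells, was low throughout. It stood at 0.311, 2.09 and 7.52 FPKM in injury replicates 1, 5 and 6 and at 0.0394 FPKM in distal replicate 3, with 0 in the remaining 7. Injury replicate 6, its highest library, was also the library highest in microglial and macrophage markers (392.6 FPKM). The same library was highest in markers of myelinating oligodendrocytes (754.6 FPKM) and of cerebrospinal fluid-contacting neurons (822.7 FPKM). Erythrocyte markers (3 IDs) were 21.3 FPKM there and 0 in every other library. Distal replicate 3, the next in microglial and macrophage markers, had almost no kcnn4. The part of any of these cells in the kcnn4 level was not tested.

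Among Kv genes the Kv3 group, whose channels open and close fast and let neurons fire at high rates, had the highest median sum of the groups examined. KCNC1 (ENSDARG00000051852), the leading Kv gene, had 18.8, 18.8, 35.7, 10.8, 31.0 and 23.1 FPKM across injury replicates 1 to 6, against 39.2, 18.8, 4.77, 25.3 and 25.1 FPKM across distal replicates 1 to 5. The spread was alike in both groups, and even injury replicates 2 and 3, which lacked most channel genes, held it. The difference was 0.18 ± 0.81 on the log2 scale (SE, limma adjusted p = 0.969). kcnc3a, of the same group, had 5.01, 10.6, 0, 0, 20.9 and 16.8 FPKM at the injury, against 5.53, 9.66, 20.2, 26.1 and 17.3 FPKM distally. Its highest value was distal and its zeros were both at the injury, but 3 injury libraries lay inside the distal range and the difference of -1.44 ± 0.99 missed the threshold (SE, limma adjusted p = 0.838). Summed over 6 IDs, the Kv3 level was 10.8 to 63.9 FPKM at the injury, against 28.4 to 82.7 FPKM distally.

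KCNG2, a silent subunit that in mammals works only when assembled with other Kv proteins, led its class and peaked in injury replicate 3. It had 14.5, 0, 201.0, 28.6, 19.2 and 9.60 FPKM across injury replicates 1 to 6, against 9.25, 24.0, 32.3, 5.75 and 61.9 FPKM across distal replicates 1 to 5. It was seen in 10 of 11 libraries, and apart from injury replicate 3 the injury values lay below the distal maximum. The difference was -0.32 ± 1.05 (SE, limma adjusted p = 0.953), negative although the highest level was at the injury. Injury replicate 3 is the library with the fewest genes, and the part of this in its high value was not tested.

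The A-type pore genes kcnd1, KCND2 and KCND3, which delay the first spike, reached 0 to 32.8 FPKM together at the injury (median 7.59), against 0 to 23.3 FPKM distally (median 5.80). The groups overlapped widely. At an unadjusted p under 0.05 by limma, 0 of the Kv3 and A-type genes were called in either direction, against 2.68% of all genes tested. The other copy of KCNC1 (ENSDARG00000032959), a Kv3 gene with 0 to 8.01 FPKM at the injury, against 0 to 10.7 FPKM distally, was called lower at the injury only with the replicate number as a block.

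The auxiliary subunits showed the widest separation of any class. These proteins form no pore; Kv channel-interacting proteins (KChIPs) bind calcium and raise the surface number of A-type channels, and Kv beta subunits such as that of kcnab2a attach to Kv1 channels inside the cell. Summed over its 16 IDs, the class stood at 113.4, 127.0, 0, 39.6, 107.9 and 78.6 FPKM across injury replicates 1 to 6, against 241.7, 149.0, 206.5, 132.8 and 157.7 FPKM across distal replicates 1 to 5. Every injury library thus lay below every distal one, which was so for none of the other 7 classes. This is a description with no test. After rescaling by the median ratio the ranges overlapped, at 0 to 125.8 FPKM at the injury, against 109.9 to 216.9 FPKM distally. Without the 3 libraries with the fewest genes they stood at 39.6 to 113.4 FPKM and 132.8 to 241.7 FPKM.

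**Figure D4:**
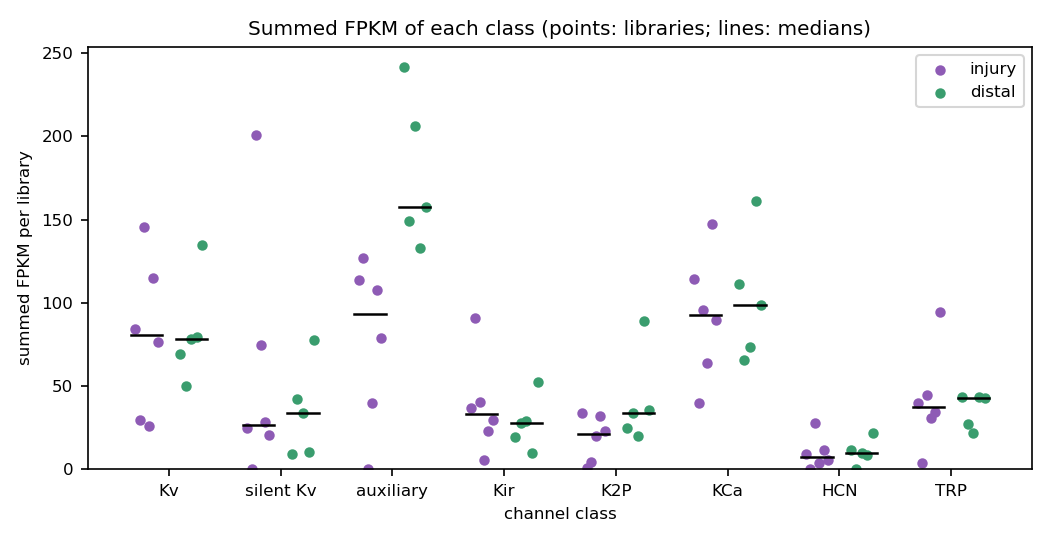
Summed FPKM of each channel class (x axis) in each library (points; purple for injury, green for distal), with the median of each group as a black line. Only the auxiliary subunits have all injury points (0 to 127.0) below all distal points (132.8 to 241.7), while KCa and Kv points of both groups intermix.

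No gene of the class passed the test alone. kcnip3b, whose product is a KChIP also known in mammals as DREAM or calsenilin, had 36.9, 45.1, 0, 0, 12.5 and 1.84 FPKM across injury replicates 1 to 6, against 97.3, 0, 143.9, 55.4 and 71.8 FPKM across distal replicates 1 to 5. It was the leading channel gene in 4 distal libraries, each above every injury library, whereas distal replicate 2 had none. The difference was -2.49 ± 1.24 on the log2 scale (SE, limma adjusted p = 0.838), with an unadjusted limma p of 0.0541 and an exact permutation p of 0.147. Without distal replicate 2, injury 2 and injury 3 the unadjusted limma p was 0.000298 and the adjusted p 0.403. That exclusion was added after the data were seen. It takes out the only distal library at 0 and the highest injury value, so its p is no support for a difference.

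Its paralog kcnip3a did not share this pattern, with 38.1, 60.5, 0, 17.4, 31.9 and 6.66 FPKM at the injury, against 13.8, 122.1, 7.02, 0 and 12.1 FPKM distally. It led the channel genes in distal replicate 2, the distal library without kcnip3b, and in injury replicate 2. kcnab2a had 25.5, 4.52, 0, 15.9, 40.3 and 37.0 FPKM at the injury, against 66.2, 26.8, 42.9, 26.2 and 47.7 FPKM distally. Injury replicates 5 and 6 fell within the distal range, and the difference was -1.69 ± 0.94 (SE, limma adjusted p = 0.838). KCNIP1, another KChIP, had 12.0, 0, 0, 0, 9.70 and 19.4 FPKM at the injury, against 63.8, 0, 5.25, 51.3 and 15.7 FPKM distally, with high values in distal replicates 1 and 4 only. Summed over 7 IDs the KChIPs overlapped between groups, at 0 to 105.6 FPKM at the injury, against 103.6 to 174.9 FPKM distally, while the A-type pore genes they bind overlapped throughout.

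Markers of myelinating oligodendrocytes moved with the same groups, being higher in every distal library (160.1 to 708.5 FPKM) than in injury replicates 1 to 5 (0 to 63.6 FPKM). In injury replicate 6, where these markers were highest of all 11 libraries (754.6 FPKM), the auxiliary sum was 78.6 FPKM and kcnip3b 1.84 FPKM, both below the distal libraries with kcnip3b. In distal replicate 1, where the markers were highest among distal libraries (708.5 FPKM), the auxiliary sum was also the highest (241.7 FPKM). Distal replicate 2, with markers at 576.4 FPKM, had kcnip3b at 0 and an auxiliary sum of 149.0 FPKM. In distal replicate 3 (465.0 FPKM) kcnip3b was at its maximum of 143.9 FPKM. In distal replicates 5 and 4, where the markers were lowest among distal libraries (160.1 and 253.1 FPKM), kcnip3b was 71.8 and 55.4 FPKM. The part of such cells in the auxiliary sum and in kcnip3b was not tested.

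**Figure D5:**
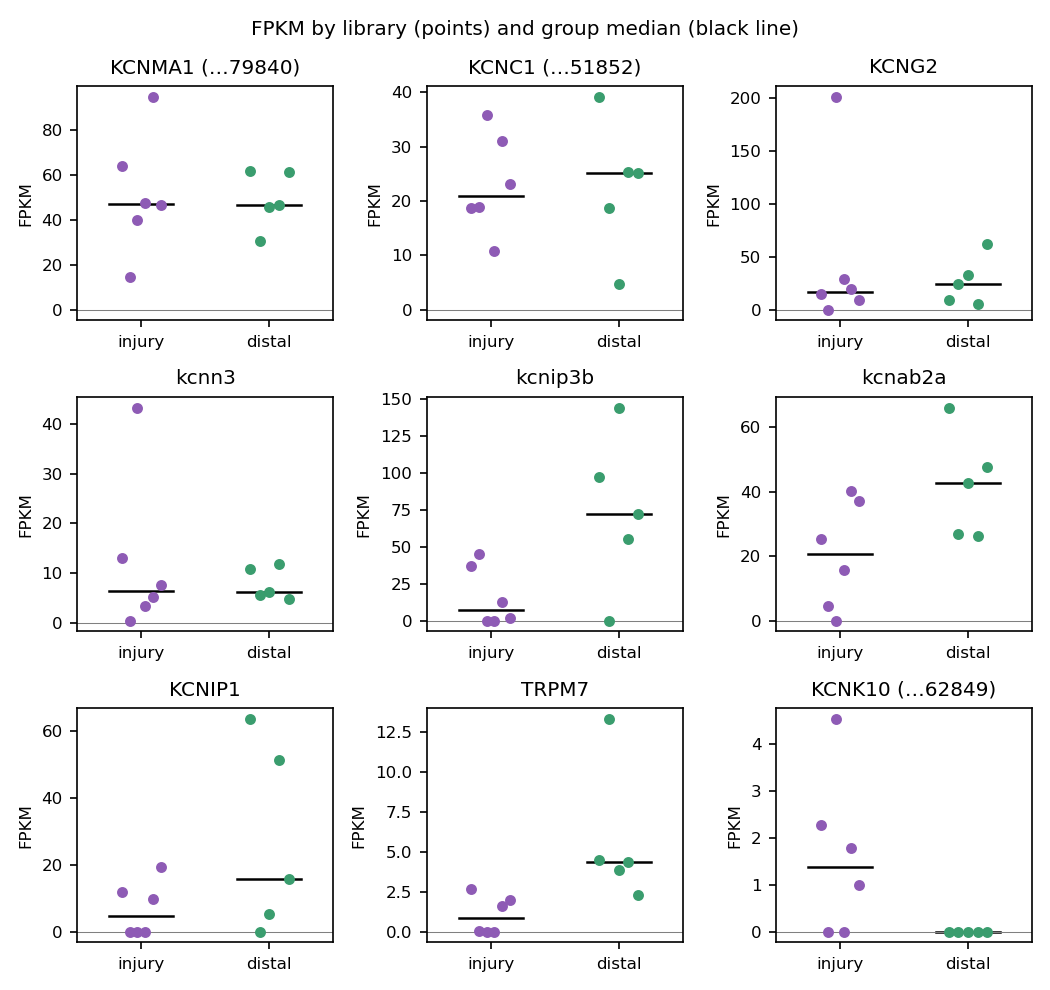
FPKM of 9 channel genes in each library (points; purple for injury, green for distal) with the median of each group as a black line; libraries listed at 0 lie on the grey line. KCNMA1 and KCNC1 intermix between groups, 4 distal points of kcnip3b lie above all injury points, TRPM7 is lower in 5 of 6 injury libraries than in any distal library, and KCNK10 (ENSDARG00000062849) is above 0 only at the injury.

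Inward rectifiers were sparse, with 11 of 29 IDs at 0 everywhere and 2 expressed. kcnj19a, the leading one, had 25.7, 0.401, 0, 5.50, 10.8 and 18.7 FPKM across injury replicates 1 to 6, against 2.23, 10.2, 11.3, 0 and 42.9 FPKM across distal replicates 1 to 5. High and low libraries occurred in both groups, and the difference was -0.22 ± 1.09 (SE, limma adjusted p = 0.972). Of the 5 GIRK IDs, only KCNJ9 was expressed. It had 1.30, 12.7, 40.6, 0, 1.65 and 2.58 FPKM at the injury, against 0, 17.7, 0.594, 6.03 and 1.01 FPKM distally, and was thus highest in the 3 libraries with the fewest genes. The other GIRK genes, KCNJ3, KCNJ5 and KCNJ6, did not pass 4.36 FPKM and were above 0 in at most 3 libraries each. kcnj21 was above 0 in 6 libraries, with 39.4 FPKM in injury replicate 2 and otherwise no more than 8.77 FPKM.

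The Kir genes that mark other cells were nearly absent. KCNJ10, a channel of glia, was above 0 only in injury replicates 5 and 6, at 0.589 and 1.44 FPKM. Markers of ependymo-radial glia (10 IDs) were present all the same. They summed to 119.8 to 581.1 FPKM at the injury, against 63.0 to 805.3 FPKM distally. Of these, GFAP was highest in injury replicates 5 and 6 (33.1 and 31.1 FPKM), while GLUL (ENSDARG00000099776) was highest in distal replicate 2 (544.1 FPKM). Both GLUL IDs and S100B were above 0 in all 11 libraries. They alone gave the whole sum in injury replicate 3 (392.6 FPKM) and distal replicate 4 (314.2 FPKM), where GFAP was 0. GFAP was above 0 in 7 libraries. Another marker of the list, her4.1, was above 0 only in injury replicates 5 and 6, the libraries with KCNJ10. How far KCNJ10 follows glial cells in the sort was not tested. KCNJ8, a channel of pericytes, was above 0 in injury replicate 1 only, at 2.01 FPKM.

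Of the 21 K2P IDs, 6 were above 0 only in injury libraries and 0 only in distal libraries. Among all channel genes the counts were 33 and 14, and all 39714 IDs leaned the same way, with 5377 and 2406. The K2P split was not tested against this background, and the injury group has 1 library more. How far detection breadth sets such counts was not tested. Of the 33 channel genes seen only at the injury, 23 were found in injury replicates 5 or 6 and nowhere else, and these were the 2 libraries with the most genes. Injury replicates 5 and 6 were also highest in GFAP (33.1 and 31.1 FPKM), FABP7 (ENSDARG00000007697, 162.0 and 213.0 FPKM) and urp1 (213.3 and 537.0 FPKM). Elsewhere these did not pass 3.89, 47.7 and 4.03 FPKM in that order. The summed ependymo-radial glia markers were highest in distal replicate 2, at 805.3 FPKM. There the GLUL IDs were 544.1 and 172.6 FPKM, FABP7 (ENSDARG00000007697) was 46.9 FPKM and GFAP 1.64 FPKM. The part of other cells in the count of 23 was not tested. Of the 33, 17 rested on 1 library, as did 11 of the 14 seen only in distal segments.

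KCNK10 (ENSDARG00000062849), which codes for a channel of the TREK group opened by stretch, lipids and warmth, was above 0 in the most injury libraries among the K2P genes seen only there. It stood at 2.28, 0, 4.55, 0, 1.79 and 0.993 FPKM in injury replicates 1 to 6 and at 0 in all 5 distal libraries. Injury replicate 3, with the fewest genes of all, held its highest value. The difference was 1.11 ± 0.55 on the log2 scale, which depends on the pseudocount (SE, limma adjusted p = 0.838), with an unadjusted limma p of 0.0553. The exact permutation p was 0.0606, the smallest that these values allow. The other copy, KCNK10 (ENSDARG00000045956), was not confined to the injury, with 3.61 FPKM in injury replicate 5 and 0.163 FPKM in distal replicate 5. kcnk12l, of the THIK group, was seen in injury replicates 5 and 6 only (4.38 and 6.02 FPKM). KCNK18, the TRESK channel that in mammals responds to calcineurin, was seen in injury replicates 1 and 5 only (3.58 and 4.02 FPKM).

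The 3 expressed K2P genes had lower mean log2 levels at the injury, and none passed the test. kcnk1a, of the TWIK group, had 13.4, 0, 0, 5.15, 5.20 and 3.20 FPKM across injury replicates 1 to 6, against 0, 0.609, 0, 52.2 and 14.1 FPKM across distal replicates 1 to 5. Distal replicate 4 held most of the distal total. KCNK1 reached 0 to 12.5 FPKM at the injury, against 0 to 17.1 FPKM distally, with zeros in both. kcnk2b, of the TREK group, had at most 3.17 FPKM at the injury and 16.1 FPKM in distal replicate 2. Limma differences were -0.21 ± 1.11, -0.94 ± 1.06 and -0.92 ± 0.87 in that order (SE). The TASK and TREK genes together, 7 IDs, ranged from 0.0739 to 11.1 FPKM at the injury, against 0 to 32.9 FPKM distally.

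HCN genes, which carry the current that opens on hyperpolarization, differed from library to library. hcn2b, the only one with a median of at least 1 FPKM, had 7.47, 0, 27.8, 3.39, 1.94 and 2.25 FPKM across injury replicates 1 to 6, against 0, 0, 0, 3.42 and 10.7 FPKM across distal replicates 1 to 5. It was thus seen in 5 of 6 injury and 2 of 5 distal libraries. The difference was 1.08 ± 1.01 (SE, limma adjusted p = 0.838), which did not pass the test. HCN4 (ENSDARG00000061685) was found in distal replicate 4 alone, at 4.98 FPKM. The other copy, HCN4 (ENSDARG00000074419), was found in injury replicates 1 and 6 alone, at 1.34 and 0.438 FPKM.

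Among TRP genes, TRPC7 (ENSDARG00000079469), whose product is opened by diacylglycerol downstream of Gq-coupled receptors, had at most 4.87 FPKM at the injury, against 8.41 FPKM distally. TRPM7, a magnesium- and calcium-permeable channel fused to a kinase, was the channel gene with the smallest exact p. It stood at 2.69, 0.0532, 0, 0, 1.62 and 1.98 FPKM across injury replicates 1 to 6, against 4.46, 13.3, 3.83, 4.36 and 2.33 FPKM across distal replicates 1 to 5. Only injury replicate 1 and distal replicate 5 broke the order of the groups. The exact permutation p was 0.00866, unadjusted over the 102 genes, and limma gave a difference of -1.72 ± 0.87 with an unadjusted p of 0.0591 (SE, limma adjusted p = 0.838). Its highest library, distal replicate 2, was among the 3 with the fewest genes, and injury replicates 2 and 3, the other 2, were at or near 0. The TRPM genes as a group, 11 IDs, reached 0 to 5.65 FPKM at the injury, against 3.83 to 16.3 FPKM distally, and overlapped.

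Sensory TRP channels were low. trpa1a, a channel of irritants, reached 3.98 FPKM at the injury, against 3.35 FPKM distally, and trpv1 and TRPA1 did not pass 0.584 FPKM. TRPV4, opened by swelling and warmth, was above 6 FPKM in injury replicates 1, 4 and 5 and in distal replicate 1 (6.08 to 7.82 FPKM) and at most 1.53 FPKM elsewhere; its values were singled out after they were seen.

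The polycystin genes PKD2L1, which codes for a cation channel of cerebrospinal fluid-contacting neurons, and pkd1l2a, another marker of those neurons, were high in 1 library. PKD2L1 was 32.7 FPKM in injury replicate 6, with no more than 5.72 FPKM elsewhere, and pkd1l2a was 36.6 FPKM there and at most 4.04 FPKM elsewhere. The same library had the highest level of the peptide genes urp1 and urp2, which mark the same neurons, at 537.0 and 141.2 FPKM. These were 213.3 and 19.5 FPKM in injury replicate 5, and in the other 9 libraries urp1 did not pass 4.03 FPKM and urp2 was 0. All 8 marker IDs of these neurons, the polycystins included, summed to 22.1 to 822.7 FPKM at the injury, against 14.3 to 60.2 FPKM distally. One of them, GAD2, was above 0 in all 11 libraries. In injury replicates 2, 3 and 4 GAD2 alone gave the whole sum, at 22.1, 78.7 and 65.0 FPKM. In distal replicate 1 PKD2L1 was 5.72 FPKM with both peptide genes at 0. How far other neurons contributed to the polycystin levels was not tested. PKD2, whose human form is mutated in polycystic kidney disease, did not pass 0.990 FPKM.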

How the data were processed

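Bulk RNA sequencing of 11 libraries of sorted ISNs was used (SMART-Seq low-input amplification, paired-end reads). The authors deposited FPKM for each gene, calculated from gene length and the reads mapped to the gene, with no scaling between libraries stated. The submitters' processing notes name HISAT2 2.0.5, HTSeq 0.9.1 and the build danRer11. Strand is not given in the sources used here, and reads of near-identical paralogs may have been split or lost in counting. The study used a count model with unadjusted p-values. Since the deposited values are FPKM, limma on a log scale took its place.

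Symbols were joined on the Ensembl ID and found for 29201 of 32520 Ensembl IDs. The 168 channel genes, their classes and the gene lists were chosen with earlier results of these data known. Library totals and fragments were recovered from the deposited FPKM, and a whole-number length that gave whole fragments was found for all 29512 genes above 0 in a library. Where a gene was above 0 in 1 or 2 libraries, such a length can nearly always be had and is no check. Counts of amplified cDNA are not independent molecules, so depth bounds counting error only. An FPKM of 0 stands for 0 recovered fragments.

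A mean of 0.1 FPKM or more was required of a gene. Values of log2(FPKM + 1) were then fitted with lmFit and a trended eBayes of limma 3.58.1 in R 4.3.3. Its p-values are two-sided and were adjusted by Benjamini-Hochberg over all 24178 genes. A fold on this scale understates changes of low genes. Single genes were also compared by exact two-sided permutation tests. Both tests were tested on simulated data drawn as normal values, without the many zeros of the channel genes. How the tests behave with such zeros was not simulated. The genes named are the 3 with the highest median FPKM in each of the classes Kv, Kir, K2P, KCa, HCN and TRP, the 1 highest of the silent Kv and of the auxiliary class, the 4 in each direction with the smallest unadjusted limma p (23 shown), and the functional groups (GIRK, SK, BK, A-type with KChIPs, M-type, Kv3, TASK and TREK, KCNJ10, KCNJ8, polycystins, sensory TRP). Some genes that this rule names are not reported here. A channel gene outside these that is named beside them is described only by its values. Other steps ran in Python 3.11.15 (scipy 1.17.1, matplotlib 3.10.9, pandas 2.3.3, numpy 2.4.6). Alternatives were the absence of a filter or a stricter one (mean of 1 FPKM), pseudocounts of 0.01 and 0.1, rescaling to a sum of 1000000 or by the median ratio, quantile normalization, no trend, the replicate number as a block, the number of genes at 1 FPKM as a covariate, voom on recovered fragments and each library left out. Leaving out the 3 libraries with the fewest genes was added after the data were seen. No sequences are shown.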

Additional observations from a re-analysis of the deposited data

Results flagged for a closer look

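In 60 groups of values (named channel genes and class sums, in injury and in distal libraries), 15 held a library far from the others. Each was picked by the gap to the next library, relative to the range of the group. A group in which only 1 library holds the gene is always picked, and class sums repeat their genes. The count of 15 is therefore a description and cannot be set against a rate due to chance. Injury replicate 3 gave 4 of the 15. It was high in KCNG2 (201.0 FPKM), the silent Kv sum (201.0 FPKM, all of it KCNG2), KCNJ9 (40.6 FPKM) and hcn2b (27.8 FPKM). The other injury libraries that stood apart were replicate 2 in kcnj21 (39.4 FPKM), replicate 4 in kcnk2b (3.17 FPKM) and replicate 6 in kcnn4 (7.52 FPKM).

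Among distal libraries, replicate 2 stood apart in kcnk2b (16.1 FPKM), TRPM7 (13.3 FPKM) and kcnn1a (0 FPKM, the only distal library without it). Replicate 4 did so in kcnk1a (52.2 FPKM), HCN4 (ENSDARG00000061685, 4.98 FPKM) and the K2P sum (89.3 FPKM), and replicate 5 in kcnj19a (42.9 FPKM). In replicate 3, kcnn4 at 0.0394 FPKM was the only distal value above 0.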

How the results depend on the processing

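The count of channel genes at an adjusted p under 0.05 by limma was 0 under every alternative run. The unadjusted count was 0 of 102 as reported (2.68% of all genes tested; the same share is in brackets below). It was 1 of 102 with a pseudocount of 0.1 (2.69%) or 0.01 (2.44%). Rescaling by the median ratio gave 1 of 102 (2.84%), and leaving out the 3 libraries with the fewest genes 1 of 106 (3.85%). It was 2 of 132 with no filter (2.24%) and 2 of 102 with no trend (3.67%). With genes detected as a covariate it was 3 of 102 (4.67%), and with voom 5 of 102 (4.82%). When 1 library was left out it was 0 to 2 (2.29% to 3.09%). Deviations of same-numbered libraries of the groups had correlations of -0.0465 to 0.133. Such low values cannot show whether equal numbers mark the same fish, which is not stated, so the main fit left pairing out. The fit with the replicate block called 3 of 102 unadjusted, against 2.88% of all genes (TRPM7, kcnn1b and KCNC1 ENSDARG00000032959, all lower at the injury). The expressed count of 30 was 26 to 36 when 1 library was left out and 41 without the 3 libraries with the fewest genes.

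The log2 difference changed sign for channel genes that had not passed the test. Without the 3 libraries it was 1.13 for kcnj19a, -0.012 for KCNJ9, 0.38 for kcnk1a, 0.055 for kcnk2b, 0.18 for KCNMA1 and -0.17 for kcnt2b, where the median of all genes moved to 0.19. With quantile normalization it was 0.27 for kcnj19a, 0.093 for KCNMA1 and 0.12 for kcnn1a. For kcnk1a it was 0.37 and 0.13 with pseudocounts of 0.01 and 0.1 and 0.31 with voom, and for kcnt2b -0.82, -0.29 and -0.71. With 1 library left out it ran from -0.27 to 0.43 for KCNC1, -1.04 to 0.49 for KCNG2, -0.93 to 0.43 for kcnj19a, -0.10 to 1.14 for KCNJ9, -1.06 to 0.16 for kcnj21, -0.72 to 0.71 for kcnk1a, -0.31 to 0.22 for KCNMA1, -0.99 to 0.26 for kcnn1a and -0.37 to 0.66 for kcnt2b. The causes were not tested. At an unadjusted limma p under 0.05 kcnip3b and TRPM7 were called in 5 of 24 and 6 of 24 settings, with adjusted p-values of 0.403 to 0.935 and 0.723 to 0.935. The 5 for kcnip3b include the fit without the 3 libraries with the fewest genes, added after the data were seen. That fit gave the 0.403. All settings reuse the same libraries, so such counts are no separate support. KCNK10 (ENSDARG00000062849), at 0 in every distal library, could not change sign and was called in 8 of 23, with adjusted p-values of 0.723 to 0.904.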
